A study of Mus musculus with 6 samples.

Results

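The genes described here belong to the imprinted neighbourhoods around the insulin-like growth factor gene Igf2. They are Igf2, H19, Ascl2, Tssc4, Kcnq1ot1, Slc22a18, Phlda2, Cd81as and Nap1l4, listed for distal chromosome 7, and Igf2r on chromosome 17. Members were taken by name: every array probe that was no control and whose gene name was spelled exactly as one of these 10. The rule found 16 probes among the 55681 on the array and covered 9 of the 10 genes. No probe carried the name Cd81as, and that gene was not analysed here. Of the 16 probes, 15 were bright enough to be tested, and they stood for 8 genes. Phlda2 was the gene left without a test.

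Satellite cells, the stem cells that lie against skeletal muscle fibres, were isolated from male C57BL/6 mice by flow cytometry. The gate kept cells positive for integrin alpha7 and CD34 and discarded those positive for CD31, CD45, CD11b or Sca1. Expression was measured on 1 single-colour Agilent array per sample, in 3 samples of young mice (3, 2 and 3 months old for replicates 1 to 3) and 3 of adult mice (6 months). No genetic change or treatment is named for either group, the number of mice behind a sample is not given, and p-values measure the spread between these samples.

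An imprinted gene is transcribed mainly from the copy inherited from the mother or from the father. At the Igf2-H19 locus, methylation of a shared control region decides whether a growth factor gene, Igf2, or a long noncoding RNA gene, H19, is used on each chromosome. At the neighbouring Kcnq1 locus, the paternally transcribed noncoding RNA Kcnq1ot1 silences genes on its own chromosome, among them the cell-cycle inhibitor gene Cdkn1c. On chromosome 17 the noncoding RNA Airn, which starts inside Igf2r on the opposite strand, does the same to Igf2r. The arrays sum both parental copies and say nothing about which copy was transcribed.

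Both noncoding members were read by several or by separated probes, so the probes are shown first. Coordinates are those of the array files, which fit mouse build mm9. The 6 H19 probes lay on the minus strand between 149761492 and 149762232 of chromosome 7 and are numbered by position. Letters are lower case because no base within a probe is singled out.
H19 probe 1: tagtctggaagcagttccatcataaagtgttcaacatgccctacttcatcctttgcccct
H19 probe 2: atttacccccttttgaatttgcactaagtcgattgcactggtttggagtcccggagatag
H19 probe 3: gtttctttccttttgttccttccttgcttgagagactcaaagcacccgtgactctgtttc
H19 probe 4: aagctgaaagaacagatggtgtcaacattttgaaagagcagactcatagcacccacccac
H19 probe 5: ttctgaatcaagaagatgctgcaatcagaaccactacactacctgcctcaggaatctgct
H19 probe 6: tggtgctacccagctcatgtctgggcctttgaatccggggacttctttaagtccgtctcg
Kcnq1ot1 had 2 member probes, at chr7:150434020-150434079 and chr7:150440140-150440199 on the minus strand. A further probe, named KCNQ1ot1 in other capitals, falls outside the rule and is shown because it was the brightest of a group near the start of the same RNA (chr7:150482201-150482260, plus strand).
Kcnq1ot1 probe 1: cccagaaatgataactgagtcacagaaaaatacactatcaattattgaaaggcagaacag
Kcnq1ot1 probe 2: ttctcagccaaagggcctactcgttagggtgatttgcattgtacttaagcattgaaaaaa
KCNQ1ot1 probe 3: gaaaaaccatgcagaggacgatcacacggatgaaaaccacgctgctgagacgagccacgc

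The promoter of Kcnq1ot1 carries the repeated CCAAT boxes for which this RNA's start is known. The RefSeq window of 250 bases before and 50 bases after the start (GRCm38.p6, chr7:143296498-143296797, minus strand) is printed with each match to CCAAT in capitals.
Kcnq1ot1 promoter: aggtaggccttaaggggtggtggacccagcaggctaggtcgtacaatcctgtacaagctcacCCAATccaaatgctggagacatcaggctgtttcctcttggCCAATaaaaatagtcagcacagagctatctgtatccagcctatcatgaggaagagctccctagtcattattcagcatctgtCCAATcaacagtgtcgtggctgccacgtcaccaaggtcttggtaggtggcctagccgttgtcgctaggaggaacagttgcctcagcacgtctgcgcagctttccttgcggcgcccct
Both strands were searched for CCAAT, and overlap with other motifs was not considered. The 3 matches were all on the gene's own strand, with their first bases at positions -188, -148 and -67 from the start. On the other strand, where CCAAT reads as ATTGG, there were 0 matches. Of the 32851 promoter windows of this length, 37.4% held CCAAT on either strand and 3.37% held at least as many matches as this one. A match is a description of the letters and was not tested for binding.

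Values below are log2 of an array's processed signal minus the log2 of that array's 75th percentile, so 0 is the level of a probe at that percentile. Differences are adult minus young, and a call is an adjusted p under 0.05 in a limma fit over 32077 genes, each read by its brightest probe, with Benjamini-Hochberg adjustment. Of the 8 members tested, 4 were lower in adult (H19, Igf2r, Kcnq1ot1 and Nap1l4), 0 were higher, and 4 did not pass (Igf2, Ascl2, Tssc4 and Slc22a18). Across all genes tested, 28.5% were called, 8.45% lower and 20.0% higher. Level matters to that background. Between the levels of the dimmest and brightest of the 6 brighter members (all but Ascl2 and Slc22a18), 21.0% of 6352 genes were called lower and 9.59% higher. Adult arrays had more probes above background (47585 to 49965) than young arrays (41531 to 45929), and the median difference over all genes was 0.30, falling from 1.44 among the dimmest 25% of genes to -0.31 among the brightest. Over the 8 members the median was -0.59, which is -0.90 once the median of all genes is taken off, and they ranged from -1.13 to 1.27. The genes at the level of the 6 brighter members had a median of -0.36.

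Adult and young arrays did not overlap for 5 members. H19, Igf2r, Kcnq1ot1 and Nap1l4 were lower on every adult array than on any young array, a pattern shown by 21.6% of all genes. Ascl2 was higher on every adult array, as were 34.0% of all genes. That share covers genes of every level, and the share among genes as dim as Ascl2 is not given. The ranges of Igf2, Tssc4 and Slc22a18 overlapped. Among the 4 called members, adult replicate 2 was the highest of the adult arrays each time.

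**Figure D1:**
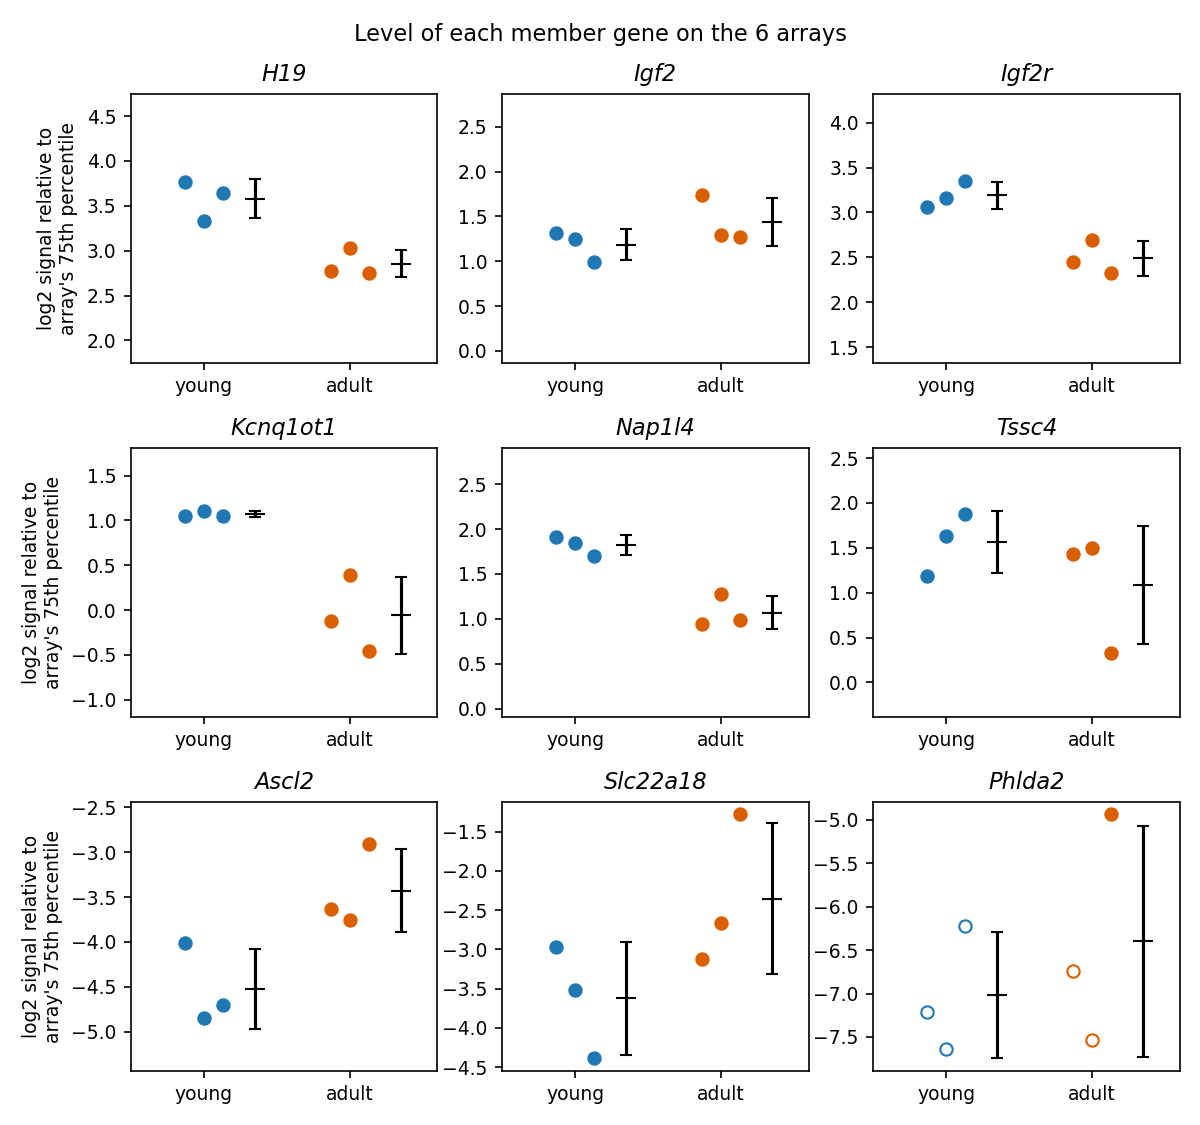
Levels of the member genes on each array (vertical axis: log2 signal over the 75th percentile of that array), with 1 point per array, the group mean with its SD beside the points, and open points where the probe was not well above background. For H19, Igf2r, Kcnq1ot1 and Nap1l4 the 3 adult points lie under the 3 young points, and for Igf2 the groups overlap.

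H19, a long noncoding RNA expressed strongly in embryonic muscle and the host of a microRNA, was lower in adult satellite cells. Its brightest probe, probe 1, read 3.77, 3.34 and 3.64 on young arrays 1 to 3. On the adult arrays the same probe read 2.78, 3.03 and 2.76. The lowest young array, replicate 2, stayed above the highest adult array. The difference was -0.73 ± 0.20 (SE, n = 3 per group), a 1.66-fold lower level, with adjusted p = 0.0448 (limma). That call lies close to the threshold. It held at 0.0494 without young replicate 2, and leaving out each of the other 5 arrays in turn ended it (0.0812 to 0.112).

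All 6 H19 probes pointed the same way. On each of them every adult array was below every young array, which held for 20.5% of all 48405 probes tested. Their differences ran from -0.84 at probe 5 to -0.42 at probe 2, folds of 1.79 and 1.34. In the fit over probes, 4 of the 6 had an unadjusted p under 0.05, and 0 had an adjusted p under 0.05 (0.0521 to 0.208, limma with Benjamini-Hochberg adjustment). Young replicate 2 was the lowest young array on all 6 probes. The probes share 1 transcript and the same RNA, so they repeat the measurement and are not replicates.

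Igf2, a fetal growth factor that signals through the IGF1 receptor, did not pass the test. It read 1.31, 1.25 and 0.996 on the young arrays and 1.74, 1.29 and 1.27 on the adult arrays. Adult replicate 1 stood highest, and adult replicates 2 and 3 lay within the young range. Its difference of 0.25 ± 0.22 (SE, n = 3 per group) had a 95% interval of -0.28 to 0.78 and an adjusted p of 0.385 (limma). Relative to the median of all genes the difference was -0.06, and with arrays scaled on their medians it turned negative, to -0.29. The median of all genes includes many dim genes, which tended to be higher in adult. Genes in the level range of the brighter members, which holds Igf2, had a median of -0.36 in the main setting. The difference of 0.25 for Igf2 lay above that median, and the gap was not tested. Igf2os, the transcript on the opposite strand of Igf2, had a difference of 0.33 (adjusted p = 0.292). Ins2, the insulin gene just beyond it, had one of 0.54 (adjusted p = 0.287). The sources used here do not say whether the labelling kept strands apart, so signals of Igf2 and Igf2os cannot be told apart where the genes overlap.

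Igf2r, the receptor that binds Igf2 and carries it to lysosomes for breakdown, was lower in adult cells. Its probe (chromosome 17, from 12875253, minus strand) was printed on 10 spots per array. Means over spots were 3.06, 3.16 and 3.35 on the young arrays and 2.45, 2.70 and 2.32 on the adult arrays. The groups did not overlap, with an SD between arrays of 0.15 in young and 0.19 in adult. Spots within an array varied with an SD of 0.029 to 0.062, which is technical spread alone. The fitted difference was -0.70 ± 0.20 (SE, n = 3 per group), 1.63-fold, with adjusted p = 0.0447. Leaving out any 1 of the 6 arrays ended the call (adjusted p 0.0757 to 0.118, limma).

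Airn, whose transcription runs over the Igf2r promoter in the opposite direction, was also measured. Its brightest probe read 4.86, 4.57 and 4.82 on the young arrays and 4.66, 4.57 and 4.63 on the adult arrays. The groups overlapped, and the difference of -0.14 ± 0.18 did not pass (adjusted p = 0.556, limma). Its other 3 probes gave -0.44, -0.38 and -0.13, none past the threshold over probes.

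Kcnq1ot1 had the largest called difference of the members at gene level. Probe 2, the brighter, read 1.05, 1.11 and 1.04 on the young arrays and -0.12, 0.39 and -0.45 on the adult arrays. Young arrays lay within 0.035 (SD) of each other, while the adult arrays spread with an SD of 0.42. The difference was -1.13 ± 0.25 (SE, n = 3 per group), 2.19-fold, with adjusted p = 0.0310. Probe 1 read -0.11, 0.20 and 0.11 on the young arrays and -0.98, -0.71 and -0.50 on the adult arrays. It gave -0.80, a 1.74-fold lower level (adjusted p = 0.0462 over probes, limma). Without any 1 of the arrays the call at gene level was lost, with adjusted p from 0.0522 to 0.0804.

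The member probes lie 42.3 and 48.4 kb inside an RNA that the files place at 150399015 to 150482452, a span of 83438 bases. RefSeq gives its length as 83437 bases. Another 5 probes, all named KCNQ1ot1, crowd within 0.05 to 0.59 kb of the end of the span where transcription starts. They were singled out with their values already known. KCNQ1ot1 probe 3 read 5.17, 4.998 and 5.28 on the young arrays and 4.28, 4.51 and 4.51 on the adult arrays. Its difference was -0.72 ± 0.18 (SE, n = 3 per group), with adjusted p = 0.0376 in the fit over genes, and 0.0556 to 0.102 with any 1 array left out. The 5 probes ranged from -0.91 to -0.37, and on 4 of them every adult array was under every young array. Over probes, 1 of these 5 was called, and both member probes were. Files list these 5 probes on the plus strand, opposite to the RNA. Whether the labelling kept strands apart is not given, so it cannot be told whether they read Kcnq1ot1 itself.

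**Figure D2:**
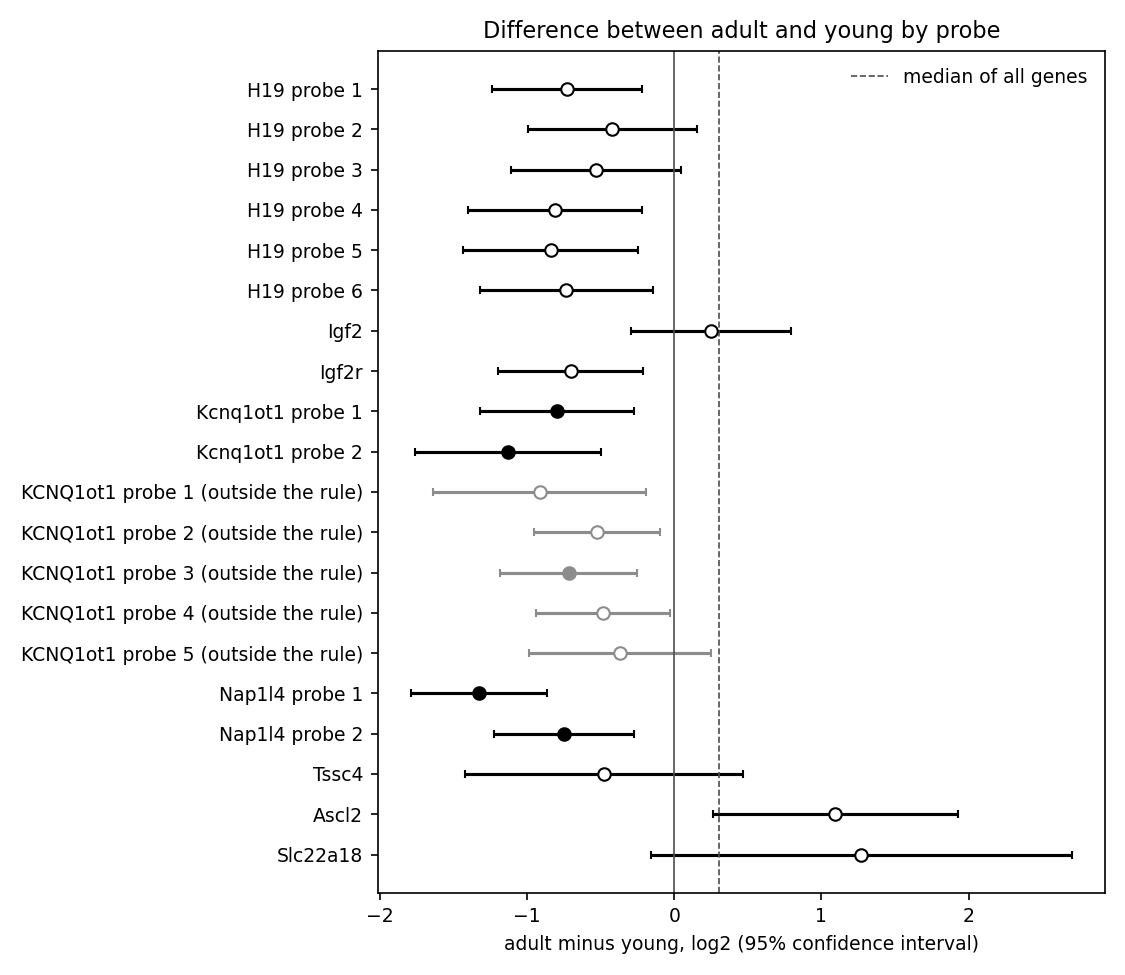
Adult minus young differences in log2 with 95% intervals for the 15 member probes tested (black) and the 5 KCNQ1ot1 probes (grey), filled where the adjusted p over probes was under 0.05. All 6 H19 probes lie left of 0 with open symbols, and both Nap1l4 and both Kcnq1ot1 member probes are filled.

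Nap1l4, a histone chaperone of the nucleosome assembly family at the edge of the Kcnq1 cluster, was lower on both of its probes. The brighter probe read 1.91, 1.85 and 1.70 on the young arrays and 0.95, 1.28 and 0.99 on the adult arrays. It gave -0.75 ± 0.19 (SE, n = 3 per group), 1.68-fold, with adjusted p = 0.0360. The dimmer probe read 1.26, 1.12 and 1.42 on the young arrays and 0.01, 0.01 and -0.20 on the adult arrays, 2.51-fold lower (adjusted p = 0.0197 over probes). Both probes kept the groups apart, but the sizes differed. The log2 ratio of the dimmer over the brighter probe differed by -0.58 between the groups, with every adult array below every young array (exact permutation p = 0.1, the smallest that 3 against 3 arrays allow). At gene level the call was lost without any 1 array (adjusted p 0.0688 to 0.0951, limma). Over all member probes, 4 of 15 were called, all lower, against 23.5% of all probes called, 6.39% lower and 17.1% higher.

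Tssc4, an assembly factor of splicing complexes, did not pass. Its young arrays read 1.19, 1.63 and 1.87, and its adult arrays 1.43, 1.503 and 0.32. Adult replicate 3 was the lowest of the 6, while the other two adult arrays lay inside the young range. The difference was -0.48 ± 0.38 (SE, n = 3 per group), with a 95% interval of -1.42 to 0.46 and adjusted p = 0.345 (limma). Without adult replicate 3 the difference was -0.098.

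Ascl2, a basic helix-loop-helix transcription factor gene needed in the placenta, was dim but above background on all 6 arrays. It read -4.02, -4.85 and -4.70 on the young arrays and -3.63, -3.75 and -2.90 on the adult arrays. Every adult array was above every young array. Dim genes tended to be higher in adult, with a median difference of 1.44 among the dimmest and 0.555 among the next dimmest. For Ascl2 the difference of 1.09 ± 0.34 (SE, n = 3 per group) missed the threshold (adjusted p = 0.0556, limma). Its direction was not kept under every alternative: quantile normalization gave -0.029 and the deposited normalized values, which also differ in background correction, gave -0.0093. Median scaling gave 0.55, and the percentile over probes above background on all arrays gave 1.23 with adjusted p = 0.0434 (limma).

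Slc22a18, a transporter of the organic cation family, was dim on every array. Young arrays read -2.97, -3.51 and -4.39, and adult arrays -3.12, -2.66 and -1.27. The spread was wide in both groups, and they overlapped. The difference was 1.27 ± 0.59 (SE, n = 3 per group), with a 95% interval of -0.16 to 2.70 and adjusted p = 0.134 (limma). This value too stands beside medians of 1.44 among the dimmest genes and 0.555 among the next dimmest. Phlda2, a gene that restrains placental growth, had signals of 3.73, 3.35 and 10.3 on the young arrays and 5.05, 3.36 and 17.4 on the adult arrays. It was well above background on 1 of 6 arrays, adult replicate 3, and no fold is given.

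Ratios of 2 genes on the same array are not touched by a scaling that gives each array 1 factor, though quantile normalization can change them. 9 such ratios were formed after the values were seen, and each was compared by a two-sided exact permutation test whose smallest possible p is 0.1, so none can pass. H19 over Igf2 was 2.39 ± 0.28 on young arrays and 1.42 ± 0.36 on adult arrays (log2, SD, n = 3), and all adult arrays were below all young arrays (exact p = 0.1, adjusted 0.129). Igf2r over Igf2 was 2.01 ± 0.32 and 1.05 ± 0.35, Nap1l4 over Igf2 0.63 ± 0.059 and -0.36 ± 0.40, and Kcnq1ot1 over Igf2 -0.12 ± 0.16 and -1.49 ± 0.52, each with separated groups. Igf2r over the brightest Airn probe was -1.56 ± 0.21 on young and -2.13 ± 0.23 on adult arrays, also separated. That separation is given for this Airn probe alone. Airn's other 3 probes gave differences of -0.44, -0.38 and -0.13, and no ratio was formed with them. In each of the ratios given so far the first gene already separated the groups alone, and the ratios over Igf2 share its values. They are therefore not independent results. Single genes separated the groups in 21.6% (adult lower) and 34.0% (adult higher) of cases, and the share of gene pairs that do so is not given. H19 over Igf2r differed by -0.02 between the groups (exact p = 1). The 2 Kcnq1ot1 probes differed from each other by -1.001 ± 0.14 and -0.67 ± 0.55, and those groups overlapped (exact p = 0.4).

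**Figure D3:**
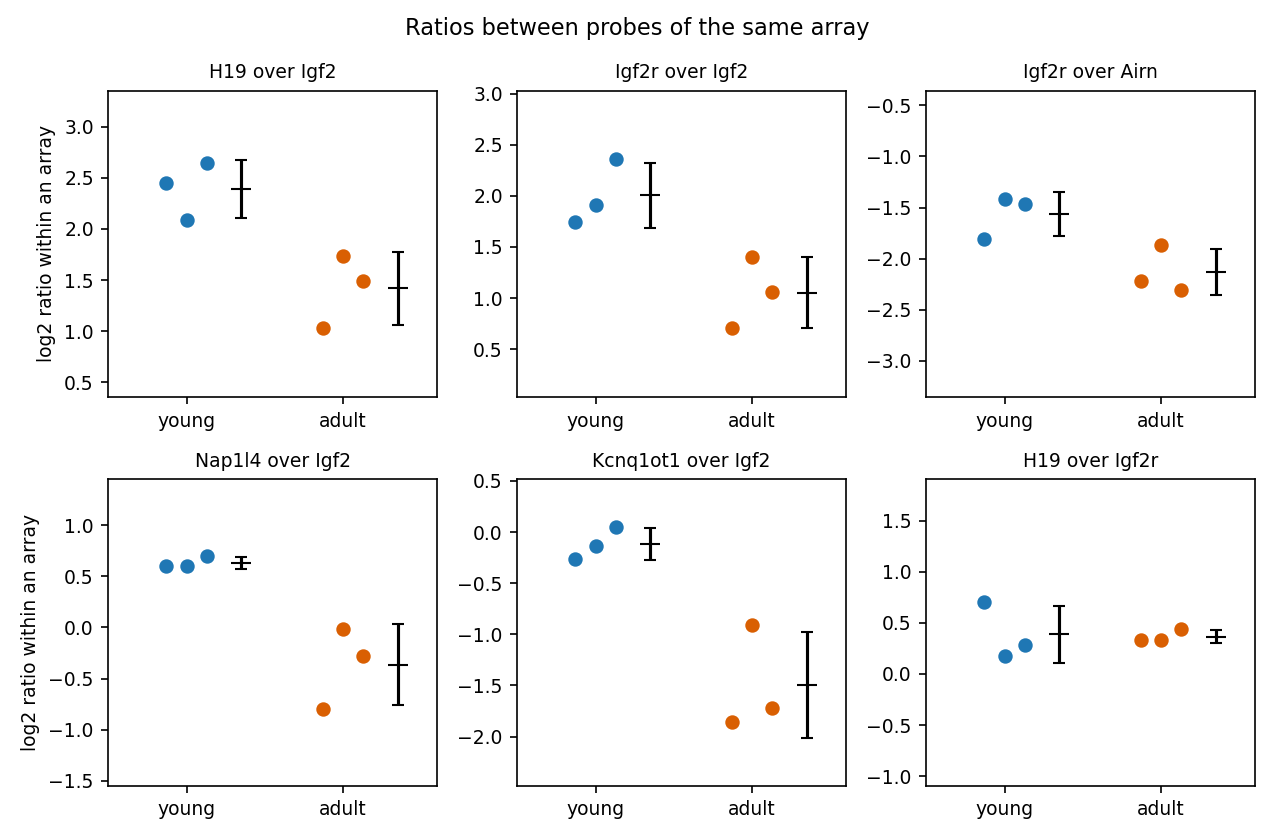
Log2 ratios of gene pairs on each array, 1 point per array, with the group mean and SD beside the points. H19, Igf2r, Nap1l4 and Kcnq1ot1 over Igf2 are lower on all 3 adult arrays than on any young array. So is Igf2r over the brightest Airn probe, and H19 over Igf2r overlaps.

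Cdkn1c, the cyclin-dependent kinase inhibitor gene of the same cluster that Kcnq1ot1 is known to silence on the paternal chromosome, is no member but sits between Kcnq1ot1 and Nap1l4. Its difference was larger in size than that of any member. Its probe read 5.05, 4.79 and 5.54 on the young arrays and 0.85, 1.41 and 1.26 on the adult arrays. The difference was -3.95 ± 0.27 (SE, n = 3 per group), 15.5-fold, with adjusted p = 0.00842, and it remained past the threshold with each array left out (0.00478 to 0.0375, limma). Kcnq1ot1 over Cdkn1c on the same array was -4.06 ± 0.41 in young and -1.23 ± 0.42 in adult (log2, SD, n = 3; exact permutation p = 0.1, adjusted 0.129). Kcnq1, the potassium channel gene whose intron holds the start of Kcnq1ot1, was above background on 1 of 3 young arrays and had an adjusted p of 0.0711. Cd81, between Ascl2 and Tssc4, had a difference of -0.33 (adjusted p = 0.176).

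Calls ran in both directions along chromosome 7, as they did over all genes. Within 500 kb of the outermost members (149261492 to 151215332) 64 genes were tested. Of these, 8 were lower and 13 higher, and the median was 0.50. Among the 13 were unnamed transcripts read at -318.5 and -287.6 kb from the H19 probe. Both were well above background on all 3 adult arrays and on no young array. They therefore entered the test through the adult arrays alone. Over all genes tested, 8.45% were lower and 20.0% higher, and the median was 0.30. Among the 39 with a gene symbol, 6 were lower and 4 higher. The 6, Mrpl23 being named after its value was seen, were Ctsd, Mrpl23, H19, Kcnq1ot1, Cdkn1c and Nap1l4. Between the outermost members, 24 genes were tested, 5 of them lower and 3 higher. Names were counted as they stand, so both lower counts hold Kcnq1ot1 and also KCNQ1ot1, whose probe is listed on the opposite strand. The wider count also holds Mrpl23 beside an unnamed transcript whose probe overlaps its own.

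**Figure D4:**
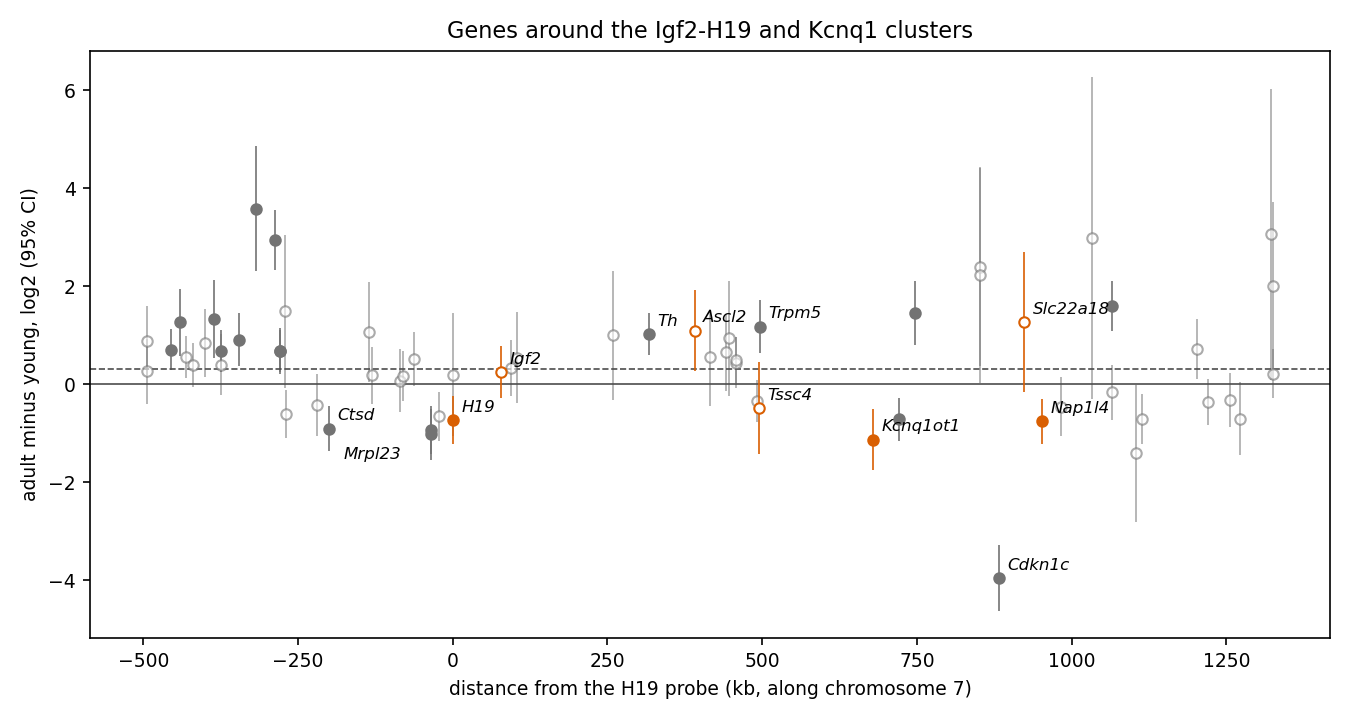
Adult minus young difference in log2, with 95% intervals, of each gene tested around the Igf2-H19 and Kcnq1 clusters, against its distance from the H19 probe in kb. Orange points are members, filled points passed the threshold, and the dashed line is the median of all genes, 0.30. Calls lie on both sides of 0 along the region. The filled points at -318.5 and -287.6 kb were well above background on adult arrays alone.

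The other genes of these neighbourhoods came from fixed lists. Their counts stand beside 8.45% of all genes called lower and 20.0% called higher. Of 20 neighbours tested on chromosome 7, 3 were lower, 2 higher and 15 did not pass, with a median of 0.01. Besides Cdkn1c, the called ones with the smallest p were Th, encoding the catecholamine enzyme tyrosine hydroxylase (1.03, adjusted p = 0.0218), Trpm5, a cation channel gene (1.18, 0.0247), and Ctsd, a lysosomal protease gene (-0.90, 0.0276). Around Igf2r and Airn 8 neighbours were tested, with 2 lower, 2 higher and a median of -0.49. Slc22a3, a cation transporter gene imprinted with Igf2r in placenta, was lower (-2.10, 0.0164), as was the chaperonin gene Tcp1 (-1.21, 0.0197). Plg, the plasminogen gene, was higher (3.59, 0.0192).

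The IGF pathway was counted beside the 28.5% of all genes called, 8.45% lower and 20.0% higher. Of 16 IGF ligands, receptors, binding proteins and their proteases tested, 3 were lower, 2 higher and 11 did not pass, with a median of -0.16. Igf1, the other growth factor ligand, was lower by 1.54 on its brightest probe (adjusted p = 0.0157, limma), and its other 4 probes gave -1.77, -1.67, -1.28 and 0.45. Igfbp3, which binds IGFs outside cells, was lower (-2.02, 0.0179), as was Ide, an insulin-degrading protease (-1.26, 0.0271). Igfbp1, among the 2 higher, was well above background on all 3 adult arrays and on no young array. It therefore entered the test through the adult arrays alone. Only a bound is given for it, at least 3.09-fold higher in adult, and no p. Igf1r, the signalling receptor, named here after its value was seen, had a difference of -0.27 and did not pass.

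Igf2r also carries lysosomal enzymes tagged with mannose 6-phosphate. Among 13 genes of that sorting route tested, 2 were lower, 0 were higher and 11 did not pass, with a median of -0.44. Over all genes, 28.5% were called, 8.45% lower and 20.0% higher. Genes in the level range of the 6 brighter members had a median of -0.36. The lower ones were Ctsd, a cargo of the route, and M6pr, the other mannose 6-phosphate receptor (-1.12, adjusted p = 0.0192, limma; its second probe gave -0.26).

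Imprinted genes elsewhere in the genome included larger falls than those of the members. In a list of 20 tested, which also holds Cdkn1c, 6 were lower, 0 were higher and 14 did not pass, with a median of -0.62. Over all genes, 8.45% were lower and 20.0% higher. In the level range of the 6 brighter members, 21.0% were lower and the median was -0.36, though the list also holds genes outside that range. Dlk1, a transmembrane ligand related to Notch ligands, was lower by 2.40 (adjusted p = 0.0152), Mest, a hydrolase gene, by 2.09 (0.0188), and Grb10, an adaptor that damps insulin and IGF receptor signalling, by 1.06 (0.0262, limma).

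Markers of the sorted cells and of other cells were counted beside the 8.45% of all genes called lower and 20.0% called higher. All 13 satellite cell markers were above background on all 6 arrays, 6 of them lower in adult, and their summed level (in multiples of the array's 75th percentile) was 186.4 to 205.8 in young and 132.9 to 180.1 in adult. Committed myoblast markers summed to 18.2 to 20.3 in young and 5.09 to 6.60 in adult, with 4 of 7 lower. Myofibre markers summed to 36.2 to 52.4 and 19.3 to 25.1, with 4 of 10 lower and 1 higher. Sums for fibro-adipogenic cells were 20.9 to 29.4 and 13.8 to 17.7, with 1 of 9 tested lower and 2 higher. Those for tenocytes were 4.71 to 10.4 and 1.98 to 4.40, with 1 of 5 tested lower and 0 higher. Of these 5, only 3 were above background on all 6 arrays. Sums overlapped for the other 4 lists. Mural cell markers summed to 284.9 to 387.3 and 332.0 to 411.2, with 5 of 10 higher and 1 lower. Sums add levels that are not logged, so a bright gene can carry a sum. The sums of different lists therefore do not compare amounts of different cells. Leukocyte markers summed to 219.6 to 425.2 and 378.3 to 402.7, with 2 of 9 tested higher and 0 lower. Of these 9, only 5 were above background on all 6 arrays. Endothelial markers summed to 19.7 to 30.8 and 19.8 to 27.1, with 1 of 10 higher and 0 lower. Adipocyte markers summed to 9.77 to 13.5 and 7.08 to 20.1, with 4 of 7 tested higher and 0 lower. Pdgfra, C1qa, Lep and Tnmd were too dim to test. The part of these markers in the members' differences was not tested, and fewer cells of a type and less RNA per cell cannot be told apart.

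**Figure D5:**
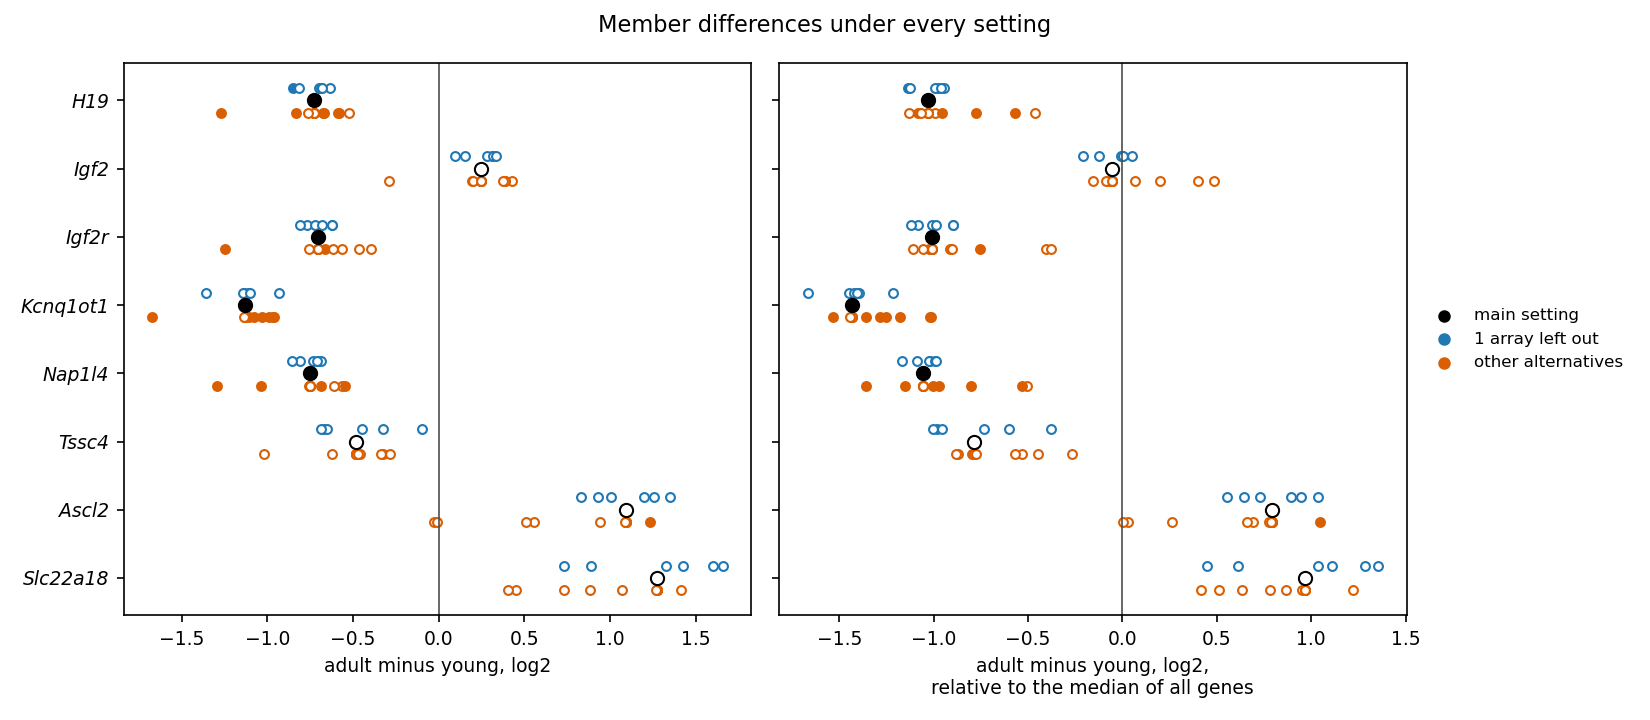
Adult minus young differences of the 8 members under the main setting, with 1 array left out and under the other alternatives, in log2 on the left and relative to the median of all genes on the right. Filled points had an adjusted p under 0.05; H19, Igf2r, Kcnq1ot1 and Nap1l4 stay left of 0 throughout, while Igf2 and Ascl2 cross it on the left.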

How the data were processed

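Arrays of 3 young and 3 adult samples were scanned and read, per the file headers, with Feature Extraction 10.7.3.1 from Agilent. The deposited intensity values were the processed signal (background-subtracted and detrended, not scaled between arrays), mean signal and local background. The deposited series matrix held log2 values with a median of 7.56, which differed by at most 0.000106 from a normexp correction (offset 50) with quantile normalization. The build is not named in the headers, and probe positions were read as mm9.

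Control spots (3671) and outlier spots were left out and spots of a probe averaged. Of the member spots, 1 was an outlier, on young replicate 2 for Igf2r. No spot was saturated. Kept were 48405 probes with at least 2 values per group and signals well above background on 3 or more arrays. The test was limma's (version 3.58.1, R 4.3.3; files read with the package data.table, release 1.17.8, figures drawn with matplotlib 3.10.9). Symbols came from the RefSeq gene list of GRCm38.p6 where accessions or names matched. Promoters matched for 7 of 10 members. For a bound, the mean of the brighter group was divided by the dimmer group's mean detection limit (per array, the lowest signal well above background, or the probe's own signal where higher). The fit was tested on simulated data.

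Members and lists were chosen with earlier results of these data known. All members and their probes are named, with Cdkn1c, up to 4 called genes of each list by smallest p, and the 3 nearest profiles of H19 and Igf2. Airn, Igf2os, Ins2, Kcnq1 and Cd81 are given as neighbours beyond that rule. A gene that the rule takes from the Igf2r-Airn list is not reported here. Alternatives covered scaling, background, filter, probe choice, variance model, weights, blocks and leaving out each array. All arrays lay on 1 slide. Replicate numbers did not pair the samples (correlations of deviations -0.0024, -0.094 and -0.14). The number of arrays limits the precision.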

Additional observations from a re-analysis of the deposited data

How the results depend on the processing

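H19, Igf2r, Kcnq1ot1 and Nap1l4 kept their direction in 18 of 18 alternatives and passed the threshold in 7, 5, 10 and 8 of them. Igf2, Tssc4 and Slc22a18 passed in 0. Ascl2 passed in 2 and turned to -0.029 with quantile normalization and -0.0093 with the deposited values. Igf2 turned to -0.29 with median scaling. Member genes called (4, all lower) became 1 with quantile normalization, 2 (1 lower) with the percentile taken over probes above background on all arrays, 2 without a filter, and 0 with an array row block. Member probes called (4) became 2, 11 with median scaling, 9 with normexp, 10 with probes above background on all arrays, 2 without a filter, 9 with trend and robust moderation and 1 with the row block. Calls in the related lists (26) became 57 with median scaling and 40 with normexp or with trend and robust moderation. Calls on distal chromosome 7 (21) became 13 with quantile normalization. Calls over all genes (9139) became 5625 with quantile normalization and 5971 with the row block. With a replicate block every one of these counts was 0, beside 12727 genes at an unadjusted p under 0.05, and the numbers do not pair the samples. With 1 array left out, counts were 295 to 7686 over all genes, 0 to 1 for member genes (all lower) and for member probes, 2 to 24 in the lists and 2 to 15 on chromosome 7. The median of all genes was 0.30, and -0.06 with quantile normalization, -0.24 with median scaling and 0.45 with the percentile over probes above background on all arrays. Lower and higher calls were 2709 and 6430, and 2752 and 2873, 8812 and 3446, and 1786 and 7883 under those 3 scalings. Why these values changed was not tested. A slide block was not run, with 1 slide. Phlda2 could not be measured at this brightness.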

Other observations

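Lists of genes that handle the Igf2 message or maintain imprints were counted beside the 28.5% of all genes called. Of 7 Igf2 mRNA-binding and let-7 pathway genes tested, 1 was lower, 1 higher and 5 did not pass, with a median difference of 0.13. Elavl1, a stabiliser of messages, was lower (-1.22, adjusted p = 0.0251, limma; its other probe gave -0.59), and Lin28a, a blocker of let-7 maturation, was higher (1.45, 0.0491). Of 20 imprinting control and methylation factors, 3 were lower, 1 higher and 16 did not pass, with a median of -0.49. Tet1, an oxidase of methylated cytosine, was lower by 0.81 on its brightest probe (0.0301), with 0.04 and -1.05 on the others. Mbd3 was lower (-0.77, 0.0348), and its other probe gave -0.60, not past the threshold over probes (adjusted p = 0.168, limma). The cohesin subunit gene Rad21 was also lower (-0.86, 0.04996). Dnmt3l, a cofactor of new methylation, was higher (1.23, 0.0460) and above background on 2 of 3 young arrays.

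Profiles over the 6 arrays, each centred on its own mean, were compared by root mean square distance over 17340 genes. Nearest to H19 were Asah1 (0.043), Clta (0.044) and Strn4 (0.048), and 1331 genes lay within 0.2. Nearest to Igf2 were Rybp (0.033), Tex48 (0.055) and Gtf2ird1 (0.061), and 547 genes lay within 0.2.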
